A study of Mus musculus with 20 samples.

Results

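The 10 genes described here were Myc, Polr1a, Polr1b, Ubtf, Rrn3, Ncl, Npm1, Fbl, Nop56 and Nop58, which regulate or carry out the first steps of ribosome production. They were taken by name from a list and matched to the Ensembl gene identifiers of the count tables, and all 10 were found among 54532 genes. RNA-seq was carried out on the whole plantaris muscle of adult male C57BL/6J mice aged 5 months, 10 days after bilateral sham surgery or mechanical overload (MOV). In MOV, part of the gastrocnemius and soleus is cut away so that the plantaris has to bear more load. During the surgery the left plantaris of each mouse was injected with a control lentivirus and the right plantaris with a lentivirus carrying a mimic of miR-1, a microRNA abundant in muscle. This gave 4 groups of 5 libraries from 10 mice, which are called sham control and MOV control (left plantaris) and sham mimic and MOV mimic (right plantaris). All groups thus had an operation and a virus injection, and no uninjected muscle was analysed here. Both viruses carried a CMV promoter and a TurboGFP reporter, and this promoter is not restricted to muscle fibers. The level of miR-1 was not analysed here.

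A ribosome starts in the nucleolus, where RNA polymerase I (Pol I) copies the repeated ribosomal DNA (rDNA) into a long precursor RNA. The precursor is modified, folded and cut by small nucleolar ribonucleoproteins (snoRNPs) and assembly factors while ribosomal proteins are added. Growing muscle makes more ribosomes, and Myc is a transcription factor known to raise the expression of Pol I factors and of nucleolar proteins. Polr1a and Polr1b encode the large subunits of Pol I, which together form its catalytic center. Ubtf encodes UBF, an HMG-box protein that binds along the rDNA and keeps it open, and Rrn3 encodes TIF-IA, which makes Pol I competent to start transcription. Ncl encodes nucleolin and Npm1 nucleophosmin, abundant nucleolar proteins with roles in chromatin and ribosome assembly. Fbl encodes fibrillarin, the methyltransferase of the box C/D snoRNPs, and Nop56 and Nop58 encode the paired core proteins of the same particles.

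Myc binds the E-box CACGTG, which reads the same on both strands. RefSeq promoters (GRCm38.p6, 250 bases before to 50 bases after a transcription start) were at hand for 7 of the 10 genes, in 12 windows, and CACGTG was found in the window of 1 gene, Rrn3. Among 32851 promoter windows of the same length, 7.15% held CACGTG and 0.594% held it at least 2 times. The window of Rrn3, at chr16:13780449-13780748 on the plus strand, is shown because it held 2 matches, given in capitals, which ended 210 and 43 bases before the start.
Rrn3: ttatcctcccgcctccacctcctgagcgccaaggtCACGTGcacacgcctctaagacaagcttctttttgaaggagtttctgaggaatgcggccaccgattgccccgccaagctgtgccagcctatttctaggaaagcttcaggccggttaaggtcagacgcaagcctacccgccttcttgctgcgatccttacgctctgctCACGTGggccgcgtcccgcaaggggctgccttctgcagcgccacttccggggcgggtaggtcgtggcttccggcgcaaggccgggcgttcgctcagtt
These letters were a match of sequence only, and binding of Myc was not measured. No window was at hand for Myc, Npm1 and Fbl.

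Depth allowed all 10 genes to be measured in every library. Total counts per library lay between 12036360 and 23056525, with a median of 16940547.5. The lowest count of any of the 10 genes was 37, for Myc in sham control 1, and the highest was 4003, for Ncl in sham mimic 4. The library MOV mimic 4 stood apart with the fewest counts and 15561 genes detected, against 18768 to 22300 in the other libraries. Sham control 1 and sham mimic 1 stood apart in composition, with fibroblast marker sums of 1253 and 1842 CPM against 4213 to 15749 CPM in the other 18 libraries and the highest muscle fiber sums, 217509 and 216738 CPM. Without sham control 1 the log2FC of MOV control against sham control was 0.83 for Myc and 0.45 for Fbl, beside 0.98 and 0.42 with it. All 10 muscle fiber markers, such as Acta1 and Ckm, were present, and their summed level was between 80496 and 217509 CPM (the counts of a gene scaled to a library of a fixed size, after TMM normalization). Levels below are in CPM, and differences are log2 fold changes (log2FC) from edgeR's quasi-likelihood test with Benjamini-Hochberg adjustment over all genes tested. In whole muscle, fewer cells of a type and less RNA per cell cannot be told apart.

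**Figure D1:**
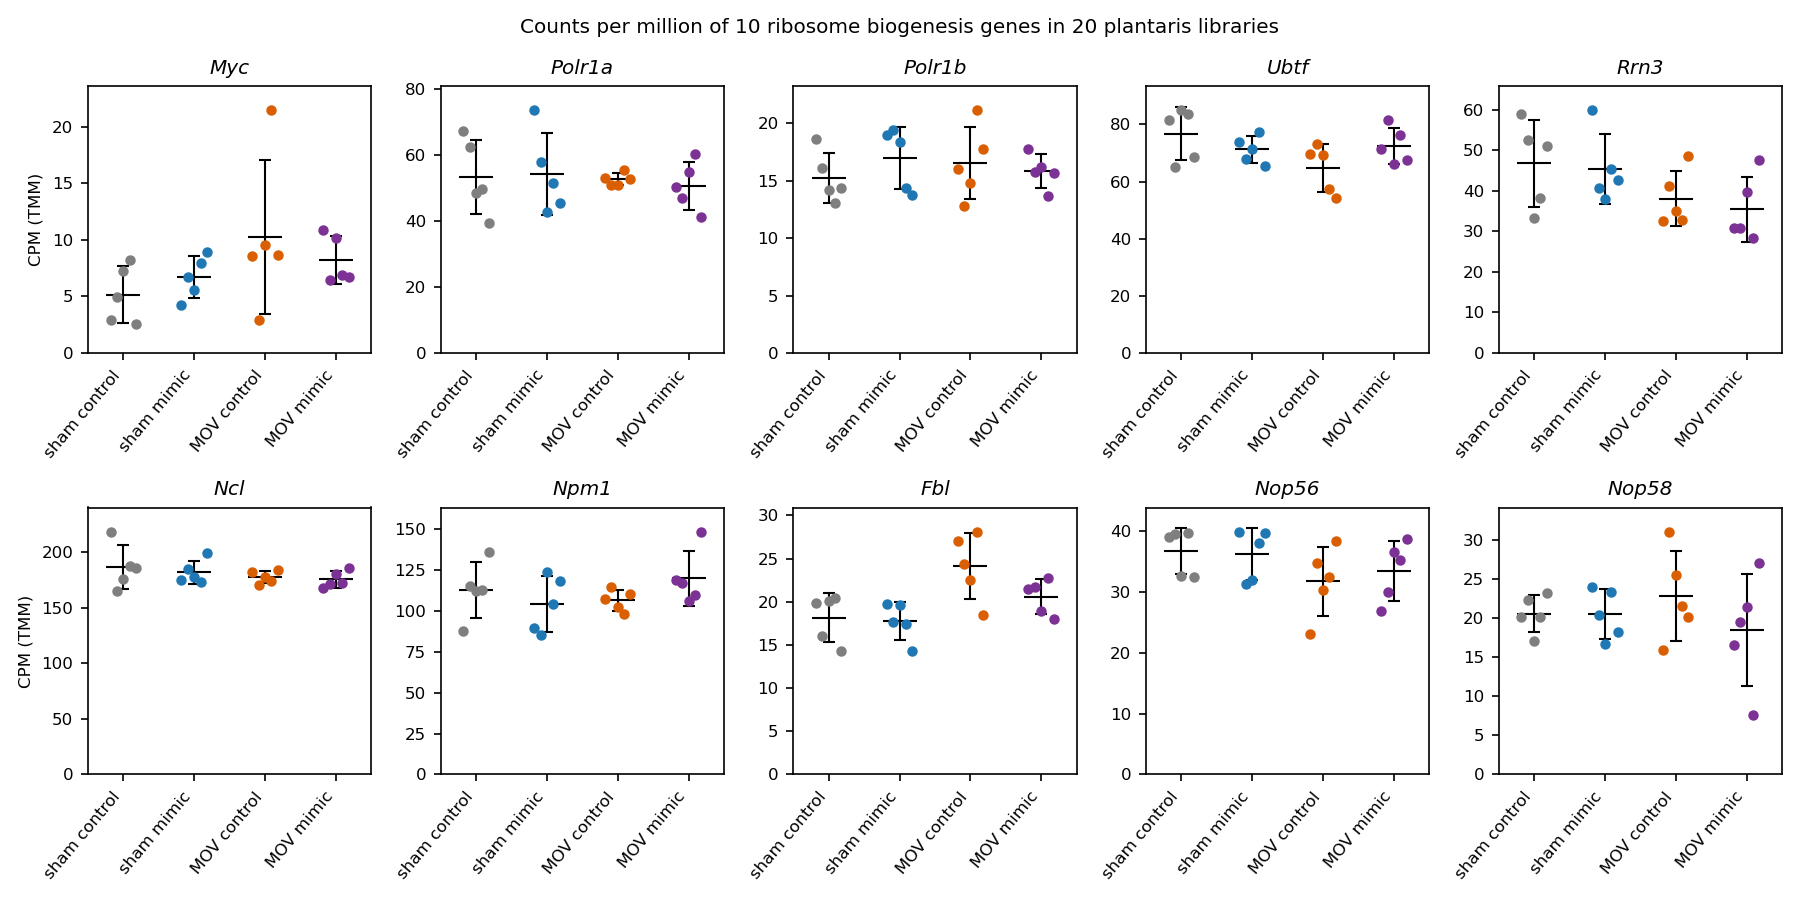
CPM after TMM normalization (y axis, from 0) of each of the 10 genes in the 5 libraries of each group (points), with the mean (wide bar) and SD (whiskers). Ncl lies between 166 and 219 CPM in all 20 libraries, whereas Myc runs from 2.54 to 21.5 CPM, and the 4 groups of each gene overlap.

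Compared per kilobase of annotated exon, the order of the genes was much the same in the 4 groups. Npm1 was highest in each group, with a mean of 42.3 ± 6.47 CPM per kb for the sham control libraries and 39.1 ± 6.39 for sham mimic (SD, n = 5). After overload the libraries of the control virus lay between 36.9 and 43.0 CPM per kb, and the mean with the mimic was 45.04 ± 6.30. Ncl came second, with means from 21.3 to 22.6 CPM per kb, and in no group did its libraries overlap those of Npm1. Fbl came next, and it overlapped Ncl in MOV control, where their means were 20.8 ± 3.30 and 21.5 ± 0.67 CPM per kb, but in no other group. Rrn3 and Ubtf followed with means between 9.86 and 13.0 CPM per kb and overlapped each other in every group. Nop56, Polr1a and Nop58 had means between 7.12 and 8.94 CPM per kb, and neighbors among them in this order overlapped in every group. Polr1b and Myc were lowest in each group, with means from 1.90 to 3.76 CPM per kb, and also overlapped. The exon lengths were those of all annotated isoforms joined together, from 1161 bases for Fbl to 8257 bases for Ncl, so that a gene with long rarely used exons appears lower on this scale.

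**Figure D2:**
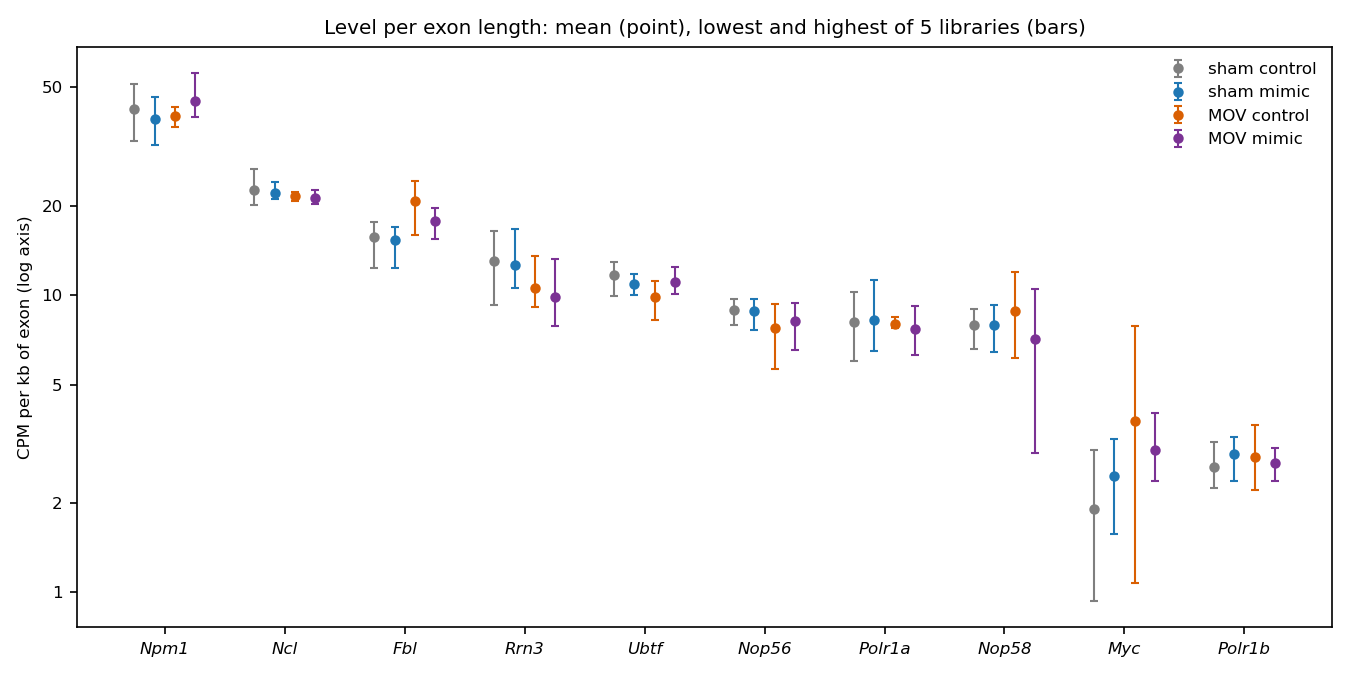
Level of the 10 genes in CPM per kb of exon (y axis, log scale) in each group of 5 libraries, as the mean (point) with the lowest and highest library (bars). Npm1 lies above Ncl in all groups, and Myc and Polr1b share the lowest place.

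The genes differed in how much they varied between muscles of the same group. Ncl was the steadiest, with a coefficient of variation of 5.96% within groups on average. Of 1222 genes with a level within 2-fold of that of Ncl, 0.164% varied less. Ubtf had a coefficient of variation of 10.1%, and 9.90% of the genes of similar level varied less. Myc was at the other end with 42.4%, and 87.9% of the genes of its level varied less, and Nop58 had 22.7% and Rrn3 20.6%. Thus Ncl differed 1.32-fold between its lowest and its highest of 20 libraries, Nop58 4.09-fold and Myc 8.45-fold.

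The first comparison, MOV control against sham control, asked which transcripts had changed after 10 days of overload. None of the 10 genes was called at an adjusted p under 0.05 (0 of 10), beside 0.00668% of all 14974 genes tested, which was 1 gene, Nos1. By DESeq2 also 0 of the 10 genes were called, beside 6.10% of all genes. At an unadjusted p under 0.05 there was 1 of the 10 genes, Fbl, beside 18.2% of all genes, and no gene of the 10 had groups without overlap, beside 4.89% of all genes. The 10 log2FC had a median of -0.04 and a median size of 0.18, against 0.04 and 0.25 over all genes.

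Myc, the upstream regulator, had the widest difference. In sham control its levels were 2.88, 4.95, 7.23, 8.20 and 2.54 CPM in libraries 1 to 5, and in MOV control 8.57, 2.91, 9.52, 21.5 and 8.65 CPM. In MOV control 4 of the 5 libraries lay above the highest sham control library, while MOV control 2 lay at the lower end of the sham range. The log2FC was 0.98 (standard error 0.46, n = 5 libraries per group), a 1.98-fold higher level with a 95% interval from 0.986 to 3.96-fold, and the adjusted p from edgeR was 0.284. Without MOV control 4, whose 21.5 CPM was the highest value of the gene, the log2FC was 0.50 and the adjusted p 0.581, and limma voom gave 0.54 with all libraries. MOV control 4 also had the highest sum of satellite cell and myoblast markers of the 20 libraries, 222 CPM. With MOV control 5 it had lower fibroblast sums, 5796 and 4213 CPM, than the other 3 libraries of the group, 13492 to 15749 CPM, and lower leukocyte sums, 447 and 380 CPM against 986 to 1181 CPM. Their part in the value of Myc was not tested.

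Fbl, the snoRNP methyltransferase, showed the smallest p of the 10 genes. It was at 19.9, 16.1, 20.1, 20.5 and 14.3 CPM in sham control and at 27.0, 24.4, 22.5, 28.1 and 18.5 CPM in MOV control. Again 4 of 5 MOV control libraries were above all sham control libraries, and MOV control 5 lay within the sham range. The log2FC was 0.42 (standard error 0.16), or 1.33-fold with an interval from 1.06 to 1.69-fold, with an unadjusted p of 0.0195 and an adjusted p of 0.182 in edgeR. Its partners in the same particle had a log2FC of opposite sign or of smaller size, and this contrast with Fbl was not tested. Nop56 had 36.7 ± 3.77 CPM in sham control and 31.8 ± 5.66 CPM in MOV control (log2FC -0.20, standard error 0.14), and Nop58 had 20.6 ± 2.39 and 22.8 ± 5.71 CPM (log2FC 0.16, standard error 0.17, SD and n = 5 for each). Without MOV control 1 the log2FC of Nop56 was -0.10, and without MOV control 2 that of Nop58 was 0.022.

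The genes of the Pol I machinery lay close to 0 or below it. Polr1a, which forms the catalytic center, was at 53.5 ± 11.3 CPM in sham control and 52.7 ± 1.81 CPM in MOV control (SD, n = 5), with a log2FC of -0.01. Its libraries ran from 39.4 to 67.3 CPM in sham control but only from 51.1 to 55.5 CPM in MOV control. Polr1b, the other large subunit, had a log2FC of 0.12 with a standard error of 0.16, and of 0.0022 without MOV control 4. Ubtf was at 81.7, 65.2, 85.0, 83.7 and 68.6 CPM in sham control and at 69.6, 73.2, 69.4, 57.6 and 54.1 CPM in MOV control. Its log2FC was -0.24 (standard error 0.13) with an adjusted p of 0.344 in edgeR, and the ranges overlapped. Rrn3, whose promoter is printed above, was at 59.0, 52.6, 33.2, 38.1 and 51.1 CPM in sham control and at 32.7, 41.3, 35.0, 32.8 and 48.6 CPM in MOV control. For Rrn3 the log2FC was -0.29 (standard error 0.17), and the values of the groups overlapped over most of their range.

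Nucleolin and nucleophosmin were at nearly equal levels in both groups. Ncl had 187 ± 19.8 CPM in sham control and 178 ± 5.53 CPM in MOV control (SD, n = 5), a log2FC of -0.06 with a 95% interval from -0.30 to 0.18. Without sham control 1 the log2FC of Ncl was -0.0036. Npm1 had 113 ± 17.3 and 107 ± 6.43 CPM, a log2FC of -0.07 with an interval from -0.35 to 0.20. Scaling by library sizes alone shifted the median log2FC of all genes by 0.16, and with it Polr1a, Ncl and Npm1 turned positive, at 0.16, 0.10 and 0.075. It also gave -0.07 for Ubtf, -0.11 for Rrn3, -0.05 for Nop56, 0.28 for Polr1b and 0.33 for Nop58. For 7 of the 10 genes the whole interval lay within a 1.5-fold difference in either direction, and for 9 within 2-fold, the exception being Myc.

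**Figure D3:**
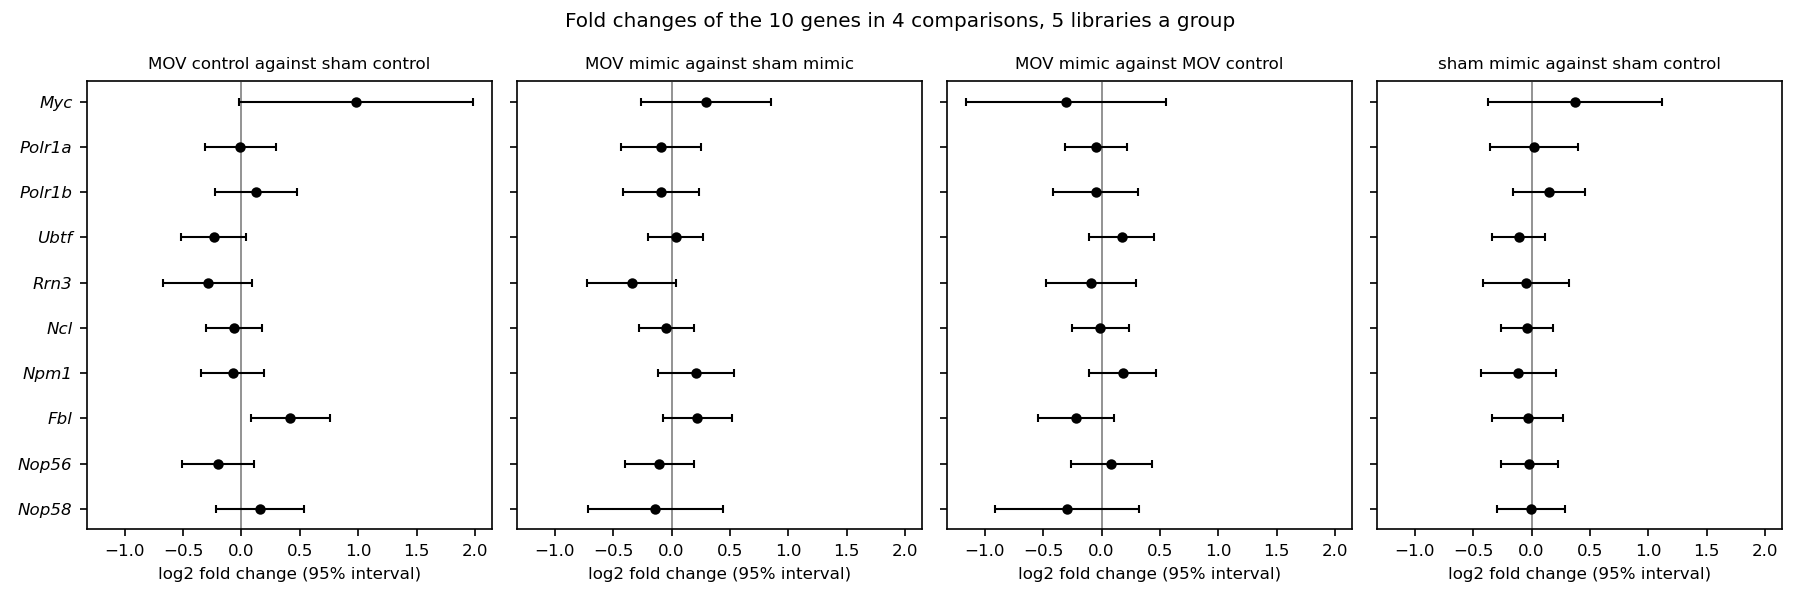
The log2 fold change (x axis, point) of the 10 genes with its 95% interval (bar) in the 4 comparisons between 2 groups, each of 5 libraries per group. The interval of Fbl in MOV control against sham control, from 0.08 to 0.75, is the one that does not include 0.

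Overload was also compared in the muscles that had received the miR-1 mimic. For MOV mimic against sham mimic, 0 of the 10 genes were called by edgeR, beside 0.0% of 14918 genes, and 0 by DESeq2, beside 1.48%. At an unadjusted p under 0.05 there were 0 of the 10 genes and 13.4% of all genes, and groups without overlap were found for 0 of the 10 and 2.73% of all. Rrn3 was at 59.9, 40.8, 38.0, 45.4 and 42.8 CPM in sham mimic and at 30.8, 30.8, 39.7, 28.4 and 47.6 CPM in MOV mimic. After overload 3 of 5 libraries were below every sham mimic library. The log2FC of Rrn3 was -0.34 (standard error 0.17) and its adjusted p in edgeR 0.416, close in size to the value of -0.29 in the control muscles, which came from other libraries of the same mice.

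Myc was at 4.26, 6.72, 5.60, 7.97 and 8.94 CPM in sham mimic and at 10.9, 6.41, 10.2, 6.85 and 6.72 CPM in MOV mimic. Of the 5 MOV mimic libraries, 2 were above the sham mimic range and 3 within it, and the log2FC was 0.30 (standard error 0.26). Fbl had 17.8 ± 2.17 CPM in sham mimic and 20.6 ± 2.01 CPM in MOV mimic (log2FC 0.22, standard error 0.14). For Npm1 the means were 104 ± 17.0 and 120 ± 16.8 CPM (log2FC 0.21, standard error 0.15, SD and n = 5). Without sham mimic 1 the log2FC of Myc was 0.17, and without MOV mimic 5 that of Npm1 was 0.11. The other 6 genes had log2FC from -0.14 for Nop58 to 0.04 for Ubtf, and all 10 intervals lay within 2-fold. These sizes depended on the scaling, which with library sizes alone gave -0.14 for Rrn3, 0.48 for Myc, 0.44 for Fbl, 0.40 for Npm1 and 0.25 for Ubtf.

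Markers of muscle fibers and of other cells also had values away from 0 in these comparisons, with 0 of them called by edgeR. For MOV control against sham control DESeq2 called 4 of 58 markers, or 6.90%, beside 6.10% of all genes. Myh4, a fast myosin, was lower (log2FC -1.59, adjusted p = 0.055 in edgeR and 2.46e-06 in DESeq2), Pax7, a satellite cell factor, was higher (1.17, 0.063 and 0.0037), and the endothelial receptors Flt1 (-0.95, 0.068 and 0.0049) and Kdr (-0.80, 0.076 and 0.0080) were lower. From sham control to MOV control, 12 of 13 markers of proliferating cells had a positive log2FC (median 0.76), and their summed level was between 45.3 and 125 CPM in sham control and between 75.9 and 165 CPM in MOV control. Markers of satellite cells and myoblasts were positive for 7 of 8 (median 0.62), with sums between 48.2 and 106 CPM in sham control and between 87.9 and 222 CPM in MOV control. Endothelial markers were negative for 6 of 7 (median -0.49), with sums between 308 and 389 CPM and between 162 and 325 CPM. Fibroblast markers were split evenly, 4 of 8 in each direction (median -0.11), and their sums ran from 1253 to 13486 CPM in sham control and from 4213 to 15749 CPM in MOV control. Muscle fiber markers were negative for 6 of 10 (median -0.30) and leukocyte markers for 8 of 12 (median -0.20). From sham mimic to MOV mimic the medians were 0.67 for proliferating cells (12 of 13 positive), 0.80 for leukocytes (10 of 12 positive), 0.47 for satellite cells and myoblasts (6 of 8 positive), -0.02 for fibroblasts (4 of 8 in each direction), -0.60 for endothelial cells (7 of 7 negative) and -0.41 for muscle fibers (9 of 10 negative). Satellite cell and myoblast sums were 58.0 to 116 CPM in sham mimic and 69.9 to 203 CPM in MOV mimic. Endothelial sums did not overlap, at 335 to 431 CPM in sham mimic and 248 to 280 CPM in MOV mimic. Here too DESeq2 called 4 of 58 markers, beside 1.48% of all genes, of which Tek, Cdh5 and Flt1, all endothelial, were lower and the leukocyte gene Cd74 was higher. No listed marker was at 0 in all libraries of a group. Their part in the values of Myc, Fbl and the other genes was not tested.

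The mimic and the control virus were compared under overload in MOV mimic against MOV control. Again 0 of the 10 genes were called, beside 0.0% of 15220 genes by edgeR and 0.0197% by DESeq2, and no gene of the 10 had an unadjusted p under 0.05, beside 4.21% of all genes. With equal replicate numbers as a block, DESeq2 called 127 of the 15220 genes and 0 of the 10, and edgeR called 0. The labels do not say that equal numbers mark a mouse. Between libraries of equal number, the mimic was higher for Npm1 in 5 of 5, for Fbl in 0 of 5 and for the other genes in 1 to 4. How often all genes did so was not counted. Myc had a log2FC of -0.30 with a standard error of 0.40. This direction rested on MOV control 4, since without that library the log2FC was 0.16. Fbl was at 21.4, 21.7, 19.0, 22.8 and 18.0 CPM in MOV mimic, where 4 libraries lay within the range of MOV control and MOV mimic 5 just below it (log2FC -0.22, standard error 0.15). Npm1 was at 119, 117, 106, 110 and 149 CPM in MOV mimic and at 107, 115, 102, 98.3 and 110 CPM in MOV control. Of the MOV mimic libraries 3 were above the MOV control range, and the log2FC of Npm1 was 0.18 (standard error 0.13, adjusted p = 0.999 in edgeR). Without MOV mimic 5, which had 149 CPM, it was 0.081.

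Nop58 had the highest coefficient of variation of the 10 genes in MOV mimic, 38.9%, and 25.01% in MOV control, where Myc had the highest, 66.6%. It was at 15.9, 31.0, 25.5, 21.5 and 20.1 CPM in MOV control and at 16.6, 19.5, 21.4, 7.59 and 27.1 CPM in MOV mimic, where the lowest value was that of MOV mimic 4, the library with the fewest counts. The log2FC of Nop58 was -0.30 (standard error 0.29) with MOV mimic 4 and -0.10 without it. Against sham mimic it was -0.14 with that library and 0.06 without it. For Ubtf the control virus gave 64.8 ± 8.38 CPM and the mimic 72.5 ± 6.37 CPM (SD, n = 5), a log2FC of 0.17, or 0.11 without MOV control 5. For Polr1a, Polr1b, Rrn3, Ncl and Nop56 the log2FC lay between -0.09 and 0.08. Leukocyte markers had a positive log2FC for 11 of 12 (median 0.67), although 0 of 58 markers were called by edgeR and 0 by DESeq2. The leukocyte sums ran from 380 to 1181 CPM in MOV control and from 632 to 1913 CPM in MOV mimic. Their part in the values of the 10 genes was not tested.

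In the sham muscles the mimic and control groups were closest. In sham mimic against sham control 0 of the 10 genes were called, beside 0.0% of 14746 genes by edgeR and 0.0% by DESeq2, and 0 had an unadjusted p under 0.05, beside 1.72% of all genes. Myc had a log2FC of 0.37 (standard error 0.34). With 1 library left out at a time it ran from 0.20 to 0.61, the highest without sham control 4. Polr1b had a log2FC of 0.15 (standard error 0.14), and the other 8 genes lay between -0.11 and 0.02. Ncl had 182 ± 10.5 CPM in sham mimic (SD, n = 5) and a log2FC of -0.04. Apart from Myc, the intervals of all genes lay within 1.5-fold.

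Whether the mimic difference itself differed between MOV and sham was tested as an interaction on all 20 libraries. None of the 10 genes was called (0 of 10), beside 0.0% of 16166 genes by edgeR and 0.00619% by DESeq2, and 2.64% of all genes but none of the 10 had an unadjusted p under 0.05. The smallest p was that of Ubtf, with an interaction of 0.27 on the log2 scale (standard error 0.16, unadjusted p = 0.0992, adjusted p = 1.00 in edgeR). Over the alternative settings this value of Ubtf lay between 0.16 and 0.32. Myc had an interaction of -0.69, with a standard error of 0.55 and a 95% interval from -1.84 to 0.47. Its size rested on MOV control 4, since without that library it was -0.22, and limma voom gave -0.26. For 4 of the 10 genes the interval lay within 1.5-fold and for 9 within 2-fold.

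Within groups, pairs of the 10 genes varied in both directions. After the group means were subtracted, the Pearson correlations of log2 CPM over the 20 libraries had a median of -0.03 over 45 pairs of genes, with 25 negative and 20 positive. These are descriptions, since both plantaris muscles of a mouse gave a library and the libraries share depth and composition. The pair with the strongest relation was Polr1a and Npm1, with r = -0.845 and Spearman's rho = -0.755, and r = -0.824 without the 2 libraries farthest in Polr1a. Within each group of 5 libraries r was negative, from -0.883 in MOV mimic to -0.619 in MOV control. Sham control 1, with the highest Polr1a of its group, 67.3 CPM, had the lowest Npm1, 87.6 CPM, and sham control 5, with the lowest Polr1a, 39.4 CPM, had the highest Npm1, 136 CPM. Sham control 1 and sham mimic 1 also had the lowest fibroblast and leukocyte marker sums of their groups, and without these 2 libraries, left out after the data were seen, r was -0.805 and rho -0.781. The pairs with the highest positive r were Ubtf and Fbl (r = 0.646, rho = 0.510), Rrn3 and Nop56 (r = 0.597, rho = 0.636) and Rrn3 and Nop58 (r = 0.578, rho = 0.650). Their order was not stable, since without the 2 libraries farthest in the first gene of each pair r was 0.518, 0.528 and 0.470. The correlation of Nop56 with Nop58, which form a pair in the particle, was 0.29, and that of Myc with the other 9 genes lay between -0.49 and 0.19.

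**Figure D4:**
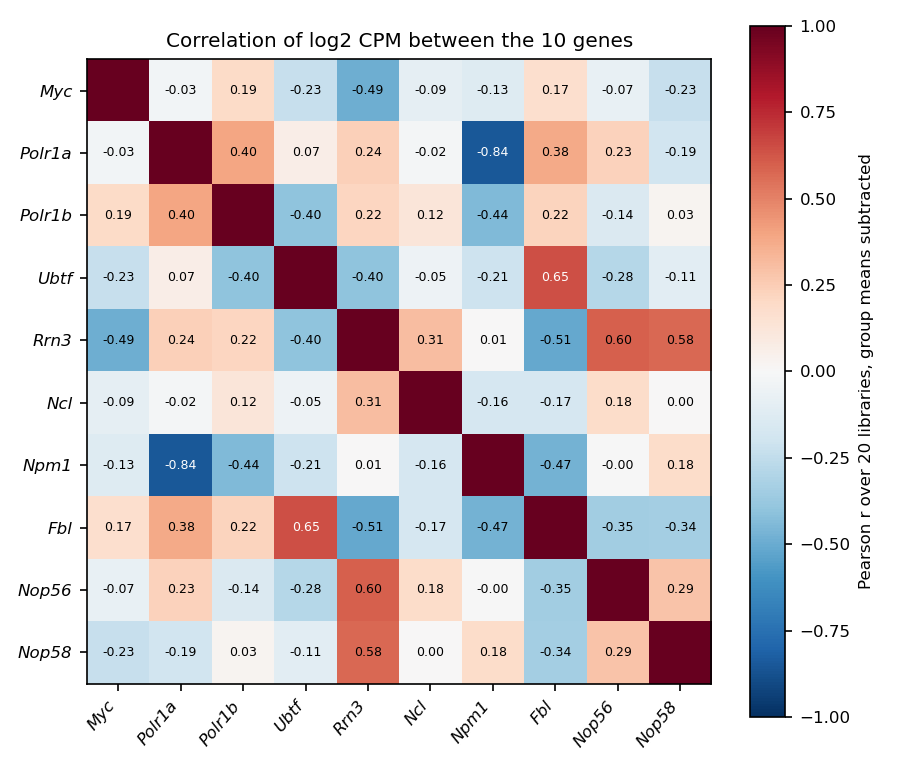
Pearson correlation of log2 CPM between each 2 of the 10 genes over 20 libraries after subtraction of group means (color scale from -1 to 1, with the value in each cell). Polr1a and Npm1 have the most negative value and Ubtf and Fbl the highest.

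For each gene the closest of 10532 genes by the same measure was looked up. Rrn3 was most alike to Rasgrp3 (r = 0.937), Nop58 to 9930021J03Rik (r = 0.929), Polr1b to Bag1 (r = 0.895), Polr1a to Mgrn1 (r = 0.862) and Ubtf to Dusp18 (r = 0.827). For Nop56 it was Map2k6 (r = 0.811), for Myc Gm12751 (r = 0.802), for Fbl Ghdc (r = 0.799), for Npm1 Ssr3 (r = 0.797) and for Ncl Nol10 (r = 0.776). Nol10, a nucleolar protein gene of the small subunit processome, was the 1 gene among these that belongs to the lists of ribosome biogenesis genes below. Its r was the lowest of those printed here. The share of listed genes among the 10532 was not counted. Each r was the highest of 10532 values, and no shared function is claimed from it.

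Counting could blur some of these genes. The annotation places 3 short RNA genes within Ncl, including Snord82 and Snora75, 5 snoRNA genes within Nop56, including Snord57 and Snord110, and 4 within Nop58, including Snord70 and Snord11. Nop56 also meets the end of Idh3b, and Polr1a overlaps a pseudogene and a long noncoding RNA gene. How reads in such overlaps were assigned, and whether strand was used, is not given in the sources used here. Npm1 has processed pseudogenes with nearly the same sequence, so that its counts carry the same uncertainty.

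To see whether the wider pathway behaved otherwise, 11 lists of ribosome biogenesis and Myc-related genes were examined, with 186 genes, of which 181 were found and 179 tested in MOV control against sham control. By edgeR 0 were called. At an unadjusted p under 0.05 there were 10 higher and 4 lower, 7.82% of those tested, beside 18.2% of all genes. The median log2FC was 0.01 and the median size 0.15, against 0.04 and 0.25 over all genes. DESeq2 called 2 of these 179 genes, beside 6.10% of all genes, and they are named here after their values were seen. Nme1, a nucleoside diphosphate kinase regarded as responsive to Myc, was at 18.0 ± 4.25 CPM in sham control and 28.3 ± 5.87 CPM in MOV control, with a log2FC of 0.66 (standard error 0.20). Ttf1, which ends Pol I transcripts at the rDNA terminators, was at 8.99 ± 1.12 and 5.72 ± 1.55 CPM (SD, n = 5), with a log2FC of -0.64 (standard error 0.21). Their adjusted p was 0.116 for Nme1 and 0.133 for Ttf1 in edgeR and 0.0493 for each in DESeq2.

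By role, the lists lay around 0. Of 11 other Pol I subunits, of which some are shared with other polymerases, 6 were positive and 5 negative with a median of 0.07, and 8 Pol I initiation and termination factors had a median of -0.10. The 7 regulators of rDNA chromatin had the highest median of a list with more than 1 gene tested, 0.27, with 6 positive. Box C/D factors other than the genes described above had a median of -0.08 over 8 genes, and box H/ACA factors a median close to 0 over 7. The small subunit processome had a median of -0.01 over 43 genes and the large subunit factors 0.00 over 47. Pol III and its regulators had 0.06 over 21, the Myc network 0.11 over 12 and Myc-responsive growth genes outside the nucleolus 0.08 over 14. Of the nucleoplasmin family, the relatives of Npm1, Npm3 was tested, at 9.48 ± 1.70 CPM in sham control and 13.5 ± 2.50 CPM in MOV control (log2FC 0.52, adjusted p = 0.154 in edgeR), and Npm2 was too low to be tested.

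**Figure D5:**
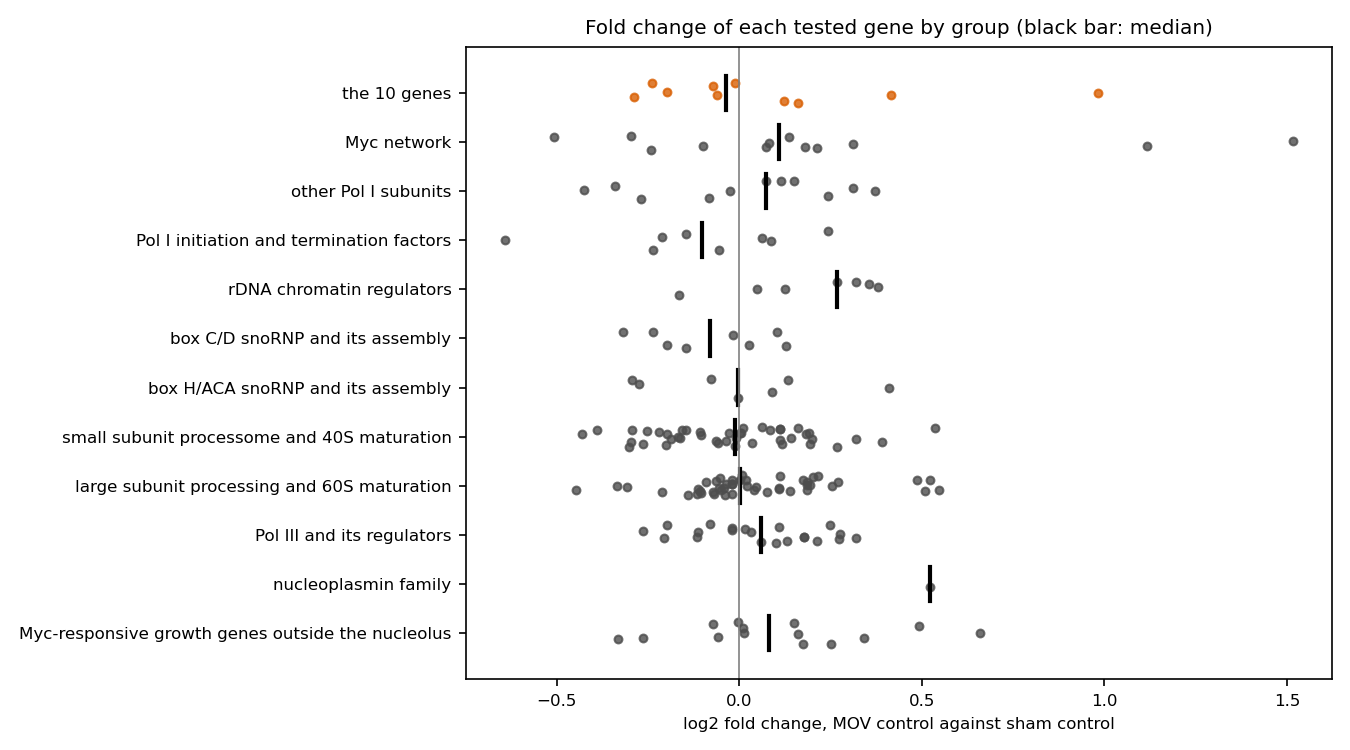
The log2 fold change of MOV control against sham control (x axis) of each tested gene (points), in rows by list, with the median of each list as a black bar. The 10 genes are in the top row, in orange, and the lists center near 0 apart from the rDNA chromatin regulators at 0.27 and the single nucleoplasmin gene at 0.52.

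In the other comparisons the same lists also gave 0 called genes by edgeR and by DESeq2. For MOV mimic against sham mimic, 18 of 179 genes had an unadjusted p under 0.05, or 10.1%, beside 13.4% of all genes, with 11 higher and 7 lower. For MOV mimic against MOV control it was 6 of 179 genes, or 3.35%, beside 4.21%, for sham mimic against sham control 2 of 178, or 1.12%, beside 1.72%, and for the interaction 6 of 180, or 3.33%, beside 2.64%.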

How the data were processed

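The authors trimmed reads with Cutadapt and Trim Galore, aligned them to GRCm38 with HISAT2 2.0.5 and counted them with featureCounts, and deposited raw counts per Ensembl gene, as per the labels and methods. From these deposited counts, CPM (TMM) and log2FC were computed here. Each comparison used edgeR 4.0.16 (quasi-likelihood test, TMM, filterByExpr, two-sided, Benjamini-Hochberg over all genes, threshold 0.05) on its 10 libraries, and the interaction on 20. The study's methods give 5 mice per surgery, each with a control and a mimic muscle. By these methods the 5 libraries of a group came from different mice, so p-values measure the spread between mice within groups. The labels do not say which control and mimic libraries share a mouse, and the main fits did not use that pairing. Alternatives were DESeq2 1.42.0, limma 3.58.1 with voom, other scalings and filters, all libraries in 1 fit, a replicate block and each library left out. Correlations used log2 CPM with a prior count of 2 and genes with a mean CPM of at least 5.

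The genes, lists and tests were chosen with earlier results of these data known. Named were the 10 genes, listed genes called in MOV control against sham control (up to 3 per direction and list, of which there were none by edgeR), the gene most alike to each of the 10, overlapping genes, and Npm2 and Npm3 as relatives of Npm1. Nos1, Nme1, Ttf1 and the markers called by DESeq2 were named after their values were seen. Of 260 listed genes 249 were matched to identifiers, and 0 of 6 rRNA names. Exon lengths came from GENCODE vM1 (NCBIM37), positions and promoters from RefSeq (GRCm38.p6). Fits were tested on simulated data. Work was done in R 4.3.3 and in Python 3.11.15 with pandas 2.3.3, numpy 2.4.6 and scipy 1.17.1.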

Additional observations from a re-analysis of the deposited data

How the results depend on the processing

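None of the 10 genes was called in any of 1110 fits of a gene over all settings (0 called). The smallest adjusted p among them was 0.0860, for Fbl in MOV control against sham control with limma voom. These fits reused the same libraries, and many of them called 0 of all genes too. This held for each left-out fit of MOV mimic against MOV control and of sham mimic against sham control. Calls over all genes in the other settings are given below. The replicate numbers in the labels are not said to mark a mouse. Equal numbers within a surgery had a mean correlation of deviations of 0.315 in MOV and 0.366 in sham. For unequal numbers it was -0.0742 and -0.0732. The lowest pair of equal numbers was at 0.0850 in MOV and 0.00961 in sham, and the main fits did not pair libraries by number. If equal numbers do mark a mouse, the main fits of mimic against control leave that pairing out. With the replicate block edgeR called 0 of the 10 genes in each comparison. Of all genes it called 1 in MOV control against sham control and 0 in the other comparisons between groups. DESeq2 with the block also called 0 of the 10 genes. Of all genes it called 127 in MOV mimic against MOV control and 5 for the interaction. It called 722 in MOV control against sham control and 116 in MOV mimic against sham mimic. In these overload comparisons the block joined different mice with the same number, so that it did not pair muscles of the same mouse. A mimic library correlated best with its own number for 5 of 5 in MOV and 2 of 5 in sham.

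Of all genes in MOV control against sham control, DESeq2 called 913 (2 of them listed pathway genes), limma voom 294, edgeR without a filter 388, with at least 10 counts in total 163, on all 20 libraries 36, and with library sizes alone 0. Leaving out 1 library gave from 0 to 426 (without sham control 3), with 318 without MOV control 5. In MOV mimic against sham mimic DESeq2 called 221, limma voom 2, edgeR without a filter 1 and on all 20 libraries 3, and leaving out 1 library gave from 0 to 101 (without MOV mimic 5). DESeq2 called 3 and edgeR on all 20 libraries 1 in MOV mimic against MOV control, and DESeq2 1 for the interaction. The cause of these differences was not tested.

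Library sizes alone shifted the median log2FC of all genes by 0.16 in MOV control against sham control and by 0.20 in MOV mimic against sham mimic. Under it Polr1a, Ncl and Npm1 turned to 0.16, 0.10 and 0.075 in the first, Polr1a, Polr1b, Ncl, Nop56 and Nop58 to 0.14, 0.12, 0.16, 0.095 and 0.049 in the second, and Ncl to 0.022 in MOV mimic against MOV control. With limma voom, Polr1a turned to 0.010 in MOV control against sham control. In MOV mimic against sham mimic, limma voom values turned to 0.0089 for Polr1a, 0.054 for Polr1b and -0.0030 for Ubtf, and edgeR without a filter turned Ubtf to -0.0017. In MOV mimic against MOV control limma voom turned Myc to 0.24 and Polr1b to 0.10. In sham mimic against sham control limma voom turned Polr1a to -0.054 and Ncl to 0.0095, and for the interaction limma voom turned Ncl to -0.034. The replicate block, which here joined different mice, turned Polr1a to 0.013 in edgeR and 0.0017 in DESeq2 in MOV control against sham control. Nop58 in sham mimic against sham control turned to 0.0011 with DESeq2 and to 0.0011 with its size factors. A block without number 4 of MOV, chosen after the data were seen, turned Myc to 0.31 and Polr1b to 0.11 in MOV mimic against MOV control.

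With 1 library left out at a time, the log2FC moved by over 1.5 times or changed sign for 7, 8, 9, 9 and 8 of the 10 genes in MOV control against sham control, MOV mimic against sham mimic, MOV mimic against MOV control, sham mimic against sham control and the interaction. Without a change of sign, for the interaction Polr1b went from -0.21 to -0.097 without MOV control 4, Fbl from -0.20 to -0.12 without sham control 5 and Nop58 from -0.31 to -0.090 without MOV mimic 4, Ubtf and Npm1 in sham mimic against sham control from -0.11 and -0.11 to -0.058 and -0.20 without sham control 3 and 1, and Nop56 in MOV mimic against sham mimic from -0.10 to -0.18 without MOV mimic 5. These changed sign. For MOV control against sham control they ran from -0.11 to 0.081 for Polr1a and -0.15 to 0.00092 for Npm1. For MOV mimic against sham mimic they ran from -0.16 to 0.036 for Polr1a, -0.013 to 0.068 for Ubtf and -0.33 to 0.060 for Nop58. For MOV mimic against MOV control they ran from -0.54 to 0.16 for Myc, -0.11 to 0.0071 for Polr1a, -0.13 to 0.054 for Polr1b, -0.23 to 0.0074 for Rrn3, -0.043 to 0.018 for Ncl and -0.013 to 0.17 for Nop56. For sham mimic against sham control they ran from -0.11 to 0.11 for Polr1a, -0.16 to 0.044 for Rrn3, -0.065 to 0.019 for Ncl, -0.11 to 0.040 for Fbl, -0.059 to 0.035 for Nop56 and -0.060 to 0.064 for Nop58. For the interaction they ran from -0.16 to 0.062 for Polr1a, -0.19 to 0.073 for Rrn3, -0.026 to 0.065 for Ncl and -0.0048 to 0.18 for Nop56.

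Other limits were that 5 libraries per group gave for Myc a 95% interval from 0.986 to 3.96-fold in MOV control against sham control, that Myc rested on as few as 37 counts, that a change in all RNA per muscle is removed by scaling to library totals, and that 1 time point was measured.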
